A study of Mus musculus with 2 samples.

Results

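The immediate early, AP-1 and NF-kappaB genes are the fast transcriptional response genes of a fibroblast, here a list of 41 genes in 11 families matched by gene symbol to the probe sets of the Affymetrix Mouse430_2 array. Of the 41 genes, 40 had at least 1 probe set annotated with that symbol alone, out of 18194 such genes on the array, and Nfkb1 was not analysed here. The RNA came from cultured fibroblasts of mouse embryos (MEFs), of 2 genotypes. One array held RNA of Malat1 Knock-out cells, which lack the nuclear long noncoding RNA Malat1, and 1 array held RNA of Wildtype cells. Cells of both genotypes were C57BL/6, were prepared on embryonic day 13.5, received no treatment and were kept in culture for 2 weeks before total RNA was taken. The sources used here do not say how many embryos supplied each array, which DNA the knock-out removes or when the cells last received serum. With 1 array a genotype there is no replicate check, so every difference below is a description of these 2 arrays and carries no p-value.

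Immediate early genes are transcribed within minutes of a stimulus such as serum, without new protein synthesis. Growth factor signals reach them through MAP kinases and the serum response factor SRF, which binds a sequence known as the CArG box. Their products include the Fos and Jun proteins, which pair through leucine zippers to form the transcription factor AP-1, and phosphatases, RNA-decay proteins and repressors that shut the response off again. NF-kappaB dimers are held in the cytoplasm by IkappaB proteins until a cytokine signal causes those inhibitors to be degraded, and several of the inhibitors are themselves NF-kappaB targets, which closes a feedback loop. Cultured fibroblasts use both pathways, and handling of the cells is known to induce many of them.

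Promoters of 5 genes are shown for their matches to the best-known motifs of the 2 pathways. The windows run for 250 bases up to the start site in RefSeq of GRCm38.p6, 5′ to 3′ on the gene's own strand. In the first pair, Srf itself (chr17:46556163-46556412, minus strand) and Dusp5, a phosphatase that inactivates ERK (chr19:53528895-53529144, plus strand), capitals mark matches to the CArG box. In the next 3, Nfkbia (chr12:55492648-55492897, minus strand), Nfkbie (chr17:45555450-45555699, plus strand) and Tnfaip3 (chr10:19015411-19015660, minus strand), which encode inhibitors of NF-kappaB and stood at different places in the comparison below, capitals mark matches to the kappaB site on either strand.
Srf: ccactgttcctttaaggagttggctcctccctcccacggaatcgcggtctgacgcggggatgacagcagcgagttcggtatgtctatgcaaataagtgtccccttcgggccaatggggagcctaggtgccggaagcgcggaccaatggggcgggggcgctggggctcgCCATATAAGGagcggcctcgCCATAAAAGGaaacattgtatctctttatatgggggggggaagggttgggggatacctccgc
Dusp5: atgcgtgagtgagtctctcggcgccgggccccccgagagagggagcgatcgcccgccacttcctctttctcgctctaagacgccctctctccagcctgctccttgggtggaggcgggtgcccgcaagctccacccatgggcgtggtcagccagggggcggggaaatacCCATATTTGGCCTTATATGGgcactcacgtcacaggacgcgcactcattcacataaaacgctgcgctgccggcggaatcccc
Nfkbia: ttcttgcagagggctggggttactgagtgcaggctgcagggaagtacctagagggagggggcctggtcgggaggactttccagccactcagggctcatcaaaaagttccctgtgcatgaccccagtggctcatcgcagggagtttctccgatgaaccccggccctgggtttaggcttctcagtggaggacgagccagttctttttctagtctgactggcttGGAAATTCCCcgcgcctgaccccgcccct
Nfkbie: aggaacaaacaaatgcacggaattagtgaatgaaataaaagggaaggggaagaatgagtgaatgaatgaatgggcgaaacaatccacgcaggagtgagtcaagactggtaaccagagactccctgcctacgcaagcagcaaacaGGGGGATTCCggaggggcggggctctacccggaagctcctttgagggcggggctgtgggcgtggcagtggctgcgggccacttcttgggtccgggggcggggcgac
Tnfaip3: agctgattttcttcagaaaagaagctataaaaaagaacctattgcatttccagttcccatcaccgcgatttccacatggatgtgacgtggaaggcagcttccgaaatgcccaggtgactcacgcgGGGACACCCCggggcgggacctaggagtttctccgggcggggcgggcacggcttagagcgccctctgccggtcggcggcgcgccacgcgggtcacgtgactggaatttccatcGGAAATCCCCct
Counted back from the start site, the Srf matches began at -82 and -62, and the 2 matches of Dusp5 stood end to end at -82 and -72. The kappaB matches began at -29 in Nfkbia, at -106 in Nfkbie and at -125 and -12 in Tnfaip3.

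Across the listed genes with a promoter window, 29 in all, each motif was searched on both strands over the full 300 bases, from 250 before to 50 after the start. The CArG box was found in 4 genes (Dusp5, Egr2, Srf and Zfp36), or 13.8%, against 1.81% of all 27025 genes with such a window. The kappaB site was found in 10 genes, or 34.5%, against 5.14% of all genes. The 10 were Fos, Fosb, Fosl2, Ier3, Nfkb2, Nfkbia, Nfkbie, Nr4a1, Rel and Tnfaip3. The Egr site GCGNGGGCG was found in 9 genes (31.0% against 6.27%), the AP-1 site TGANTCA in 5 (17.2% against 8.97%) and the cyclic AMP response element TGACGTCA in 1, Dusp1 (3.45% against 2.03%). No 2 different motifs overlapped in these genes, and the windows were not matched on base composition. A match describes the letters alone. The 8 measured genes with a kappaB match differed between the arrays by -0.97 to 0.44 with a median of -0.05, and the 4 with a CArG box by -0.29 to 0.17 with a median of -0.015.

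The label of the knock-out array was checked at Malat1. The brightest Malat1 probe set read 4.53 on the knock-out array and 9.80 on the wildtype array, on the log2 scale of all signals here. The floor, each array's median signal, was 5.44 on the knock-out array and 5.39 on the wildtype array, and a probe set at or above it on both arrays is called measured. The arrays also differed in sex-linked transcripts, with the brightest Xist probe set at 11.49 on the knock-out array and 4.50 on the wildtype array and that of the Y-linked gene Eif2s3y at 2.81 on the knock-out array and 8.57 on the wildtype array, so genotype and sex cannot be told apart. All 10 fibroblast markers were measured on both arrays, but 7 of them were lower on the knock-out array, with a median of -0.25. Vim read 14.30 on the knock-out array and 14.25 on the wildtype array, Col1a1 11.76 on the knock-out and 12.71 on the wildtype array (1.93-fold lower), and Pdgfra 7.47 on the knock-out and 8.20 on the wildtype array (1.66-fold lower). Over the 11295 measured genes the median difference, knock-out minus wildtype, was -0.05 and the SD across genes was 0.24.

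The immediate early, AP-1 and NF-kappaB genes had similar signals on the 2 arrays for the most part. Each is given by its brightest probe set, and 38 of the 40 were measured, the others being Fosb and Rel. Their differences ran from -0.97 (Nfkbie) to 0.55 (Dusp4), with a median of -0.049 beside -0.05 for all measured genes. Of the 38, 13 were higher and 25 lower on the knock-out array, or 65.8% lower, where 59.8% of all measured genes were lower. Once the arrays were centred on the median difference the split was 20 higher and 18 lower, as it was after quantile normalization and after loess centring. That is 47.4% lower, where 47.6%, 44.8% and 46.6% of all measured genes were lower under the 3 scalings. The excess of lower genes thus depended on the scaling, for these genes and for all measured genes alike. A size of 1.5-fold was passed by 2 genes, Nfkbie and Klf5, both lower on the knock-out array. In all measured genes 2.44% passed that size, 0.832% higher and 1.61% lower. None of the 38 passed 2-fold, as 0.336% of all measured genes did (0.0708% higher and 0.266% lower). The median size of the difference, leaving out its sign, was 0.18 for these genes and 0.14 for all measured genes. A difference of at least 0.32 was seen for 9 of the 38, 3 higher and 6 lower. In all measured genes 15.9% reached that size, 5.96% higher and 9.91% lower. Among the 9, Egr3 and Zfp36l2 had other measured probe sets of the opposite sign. In a bulk sample, fewer cells of a type and less RNA per cell cannot be told apart.

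**Figure D1:**
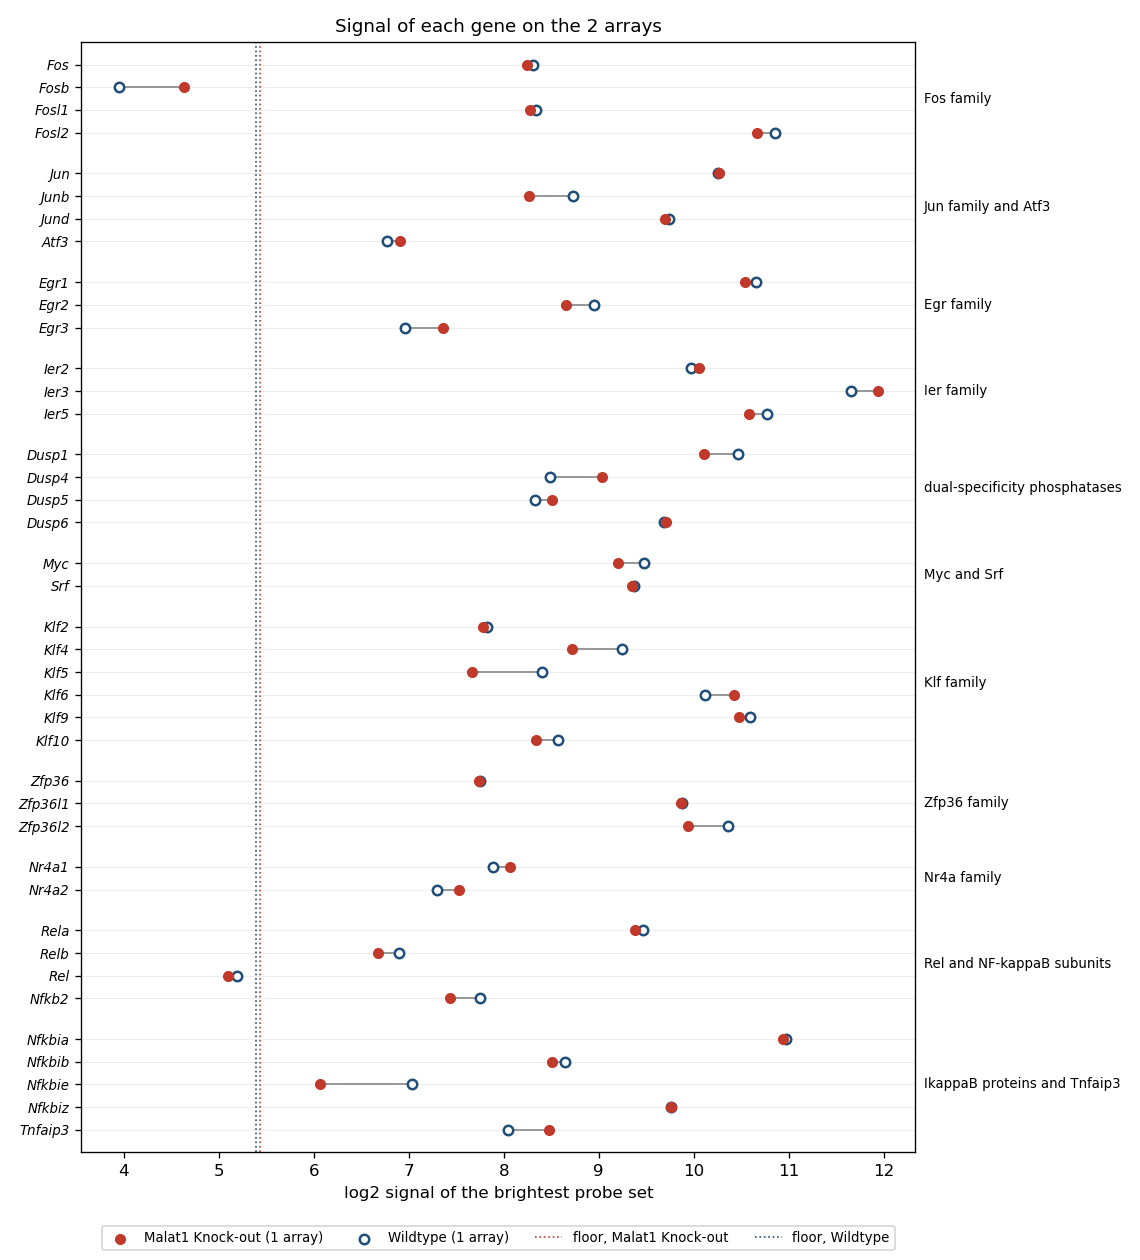
Log2 signal (horizontal axis) of the brightest probe set of each of the 40 genes, grouped by family. Filled red points are the Malat1 Knock-out array, open blue points the Wildtype array and dotted lines the floor of each array. Most pairs lie close together, Nfkbie, Klf5, Dusp4 and Klf4 lie farthest apart among the measured genes, and Fosb and Rel lie left of both floors.

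The Fos proteins, the partners that give AP-1 its strongest DNA binding, differed little. Fos, the classic serum-induced oncogene, read 8.25 on the knock-out array and 8.31 on the wildtype array, a difference of -0.064. Fosl1, the late-induced family member Fra-1, read 8.28 in the knock-out against 8.34 in the wildtype, and its second probe set differed by -0.23. Fosl2, which encodes Fra-2, read 10.66 in the knock-out against 10.85 in the wildtype, a difference of -0.19, while its dimmer probe set went the other way by 0.40, at 6.23 on the knock-out array and 5.83 on the wildtype array. Fosb, whose product is best known from the brain, was under the floor on both arrays, at 4.64 on the knock-out and 3.95 on the wildtype array. The brightest probe sets of the 3 measured genes were thus all slightly lower on the knock-out array as deposited, but the family median of -0.064 lay between -0.0029 and 0.046 under the other scalings.

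The Jun proteins and Atf3 complete the AP-1 dimer. Jun, the main activator of the family in fibroblasts, read 10.27 on the knock-out array and 10.25 on the wildtype array, and its second probe set read 9.15 on the knock-out and 9.19 on the wildtype array. Jund, the family member that is usually expressed without a stimulus, read 9.70 on the knock-out and 9.74 on the wildtype array, and a second Jund probe set was under the floor on both arrays. Junb, which often opposes Jun in growth control, had the largest difference among the measured Fos and Jun genes and Atf3, at 8.27 on the knock-out array against 8.73 on the wildtype array, or 1.38-fold lower. It has 1 probe set, and its difference was -0.46 as deposited and -0.35 at the smallest over the alternatives. Atf3, a stress-induced repressor of the ATF family that also pairs with Jun proteins, read 6.91 on the knock-out and 6.77 on the wildtype array, a difference of 0.14. Jun and Jund therefore differed by less than 0.1 while Junb did not.

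The Egr zinc-finger factors, direct targets of ERK signalling through SRF, did not share a direction. Egr1 read 10.54 on the knock-out array and 10.66 on the wildtype array. Egr2, known for its part in nerve myelination, was lower at both of its probe sets, with 8.66 in the knock-out against 8.95 in the wildtype and 8.47 in the knock-out against 8.83 in the wildtype, differences of -0.29 and -0.36. Egr3 gave opposite answers at its 2 probe sets. The brighter read 7.36 on the knock-out array and 6.96 on the wildtype array, a difference of 0.40. The dimmer read 5.82 on the knock-out and 6.38 on the wildtype array, a difference of -0.57. No direction for Egr3 can be read from these values.

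The Ier genes, short immediate early response genes, were bright on both arrays. Ier3, an NF-kappaB target that modulates cell death, read 11.94 on the knock-out array and 11.66 on the wildtype array, a difference of 0.28. Ier2 read 10.05 on the knock-out and 9.97 on the wildtype array. Ier5 was lower at all 3 of its probe sets, by -0.19, -0.33 and -0.051, and its brightest read 10.58 on the knock-out array against 10.78 on the wildtype array. Ier2 and Ier3 have 1 probe set each.

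The dual-specificity phosphatases switch off MAP kinases and are induced by the kinases that they inactivate. Dusp4, a nuclear phosphatase of ERK and other MAP kinases, was the gene with the largest positive difference among those measured, at 9.04 on the knock-out array against 8.49 on the wildtype array, or 1.46-fold higher. It passed 1.5-fold once the arrays were rescaled and reached 0.65 at most. Dusp5, a nuclear phosphatase of ERK, read 8.51 on the knock-out and 8.33 on the wildtype array, a difference of 0.17, and Dusp6, its cytoplasmic counterpart, read 9.71 on the knock-out and 9.69 on the wildtype array. Dusp1, which acts mainly on p38 and JNK, lay on the other side, at 10.11 on the knock-out array against 10.46 on the wildtype array, 1.28-fold lower. Each of the 4 has 1 probe set, and each kept its sign in all 11 alternatives that gave it a value.

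Myc, the growth-promoting transcription factor, read 9.20 on the knock-out array and 9.48 on the wildtype array, 1.21-fold lower. Srf, through which serum reaches many of these genes, read 9.35 on the knock-out and 9.37 on the wildtype array at its brightest probe set, a difference of -0.016, and differed by -0.039 at the other. Srf RNA was thus nearly level on the 2 arrays, and the sign of its small difference turned under each of the 3 other scalings.

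The Klf family of zinc-finger factors held the widest spread among the immediate early families, from -0.73 to 0.30. As deposited, 5 of its 6 genes were lower on the knock-out array, beside 59.8% of all measured genes. Klf5, which promotes proliferation, read 7.67 on the knock-out array against 8.40 on the wildtype array, 1.66-fold lower, and its other 2 probe sets were under the floor on both arrays. It stayed past 1.5-fold in each of the 10 alternatives that gave it a value, at -0.59 or lower. Klf4, a factor of growth arrest and one of the reprogramming factors, was lower at both probe sets, with 8.72 in the knock-out against 9.25 in the wildtype and 8.36 in the knock-out against 8.71 in the wildtype, or 1.45-fold lower at the brighter. Klf9, a target of glucocorticoid and thyroid hormone signalling, differed by -0.12 at its brightest probe set, 10.48 in the knock-out against 10.60 in the wildtype, and by -0.18 to -0.55 at the 5 others that were measured. Klf10, a factor induced by TGF-beta, read 8.34 on the knock-out and 8.57 on the wildtype array, a difference of -0.23. Klf2, best known from blood vessel linings under flow, read 7.78 on the knock-out and 7.82 on the wildtype array. Klf6 was the exception at 10.42 on the knock-out array against 10.12 on the wildtype array, 1.23-fold higher, though its other 4 probe sets differed by only -0.094 to 0.10. The family median was -0.17 as deposited and between -0.11 and -0.095 under the other scalings.

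The Zfp36 proteins bind AU-rich elements and bring early response messages to decay. Zfp36, or tristetraprolin, read 7.74 on the knock-out array and 7.76 on the wildtype array. Zfp36l1 read 9.86 on the knock-out and 9.88 on the wildtype array at its brightest probe set, with a difference of -0.40 at the other. Zfp36l2 was lower at its brightest probe set, 9.94 in the knock-out against 10.36 in the wildtype or 1.34-fold, but its other 2 were higher, by 0.31 and 0.18. The probe sets therefore agree on no direction for Zfp36l2, and Zfp36 has 1 probe set.

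The orphan nuclear receptors of the Nr4a family, which need no ligand and are controlled by their own rapid transcription, were both higher on the knock-out array. Nr4a1 read 8.06 in the knock-out against 7.89 in the wildtype, a difference of 0.17. Nr4a2 read 7.53 in the knock-out against 7.30 in the wildtype at its brightest probe set, a difference of 0.23, and its other 4 measured probe sets differed by -0.065 to 0.46. Their median stayed positive in every alternative, between 0.15 and 0.32.

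At their brightest probe sets, the Rel and NF-kappaB subunits that could be compared were all slightly lower on the knock-out array. Of all measured genes 59.8% were lower. Rela, the main transactivating subunit, whose gene lies on chromosome 19 with Malat1, read 9.38 on the knock-out array and 9.47 on the wildtype array. Relb, the subunit of the noncanonical pathway, read 6.68 on the knock-out and 6.90 on the wildtype array, a difference of -0.21. Nfkb2, which encodes the p100 precursor of p52, read 7.43 on the knock-out and 7.75 on the wildtype array at its brightest probe set, a difference of -0.31, while a probe set that can pick up related transcripts differed by 0.11 the other way. Rel, the subunit typical of lymphocytes, was under the floor on both arrays, at 5.09 on the knock-out and 5.19 on the wildtype array. The median of the 3 measured genes was -0.21 and stayed negative in every alternative, between -0.21 and -0.091. The 5 listed genes of that chromosome (Fosl1, Dusp5, Klf9, Rela and Nfkb2) differed by -0.31 to 0.17.

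The 5 genes of the group of IkappaB proteins and Tnfaip3 did not share a direction. Nfkbie, which encodes IkappaB epsilon, read 6.07 on the knock-out array against 7.03 on the wildtype array, 1.96-fold lower and the largest difference of all 38 genes. Of all measured genes 0.266% had a lower value. The signal was dim and came from a probe set that can pick up related transcripts. The other Nfkbie probe set also read lower, 5.13 in the knock-out against 5.47 in the wildtype, where it was measured on the wildtype array alone. Adding 64 to the linear signals brought the difference to -0.57, under 1.5-fold. Nfkbia, which encodes the prototype inhibitor IkappaB alpha, differed by -0.035 at its brightest probe set, 10.94 in the knock-out against 10.97 in the wildtype, and by -0.25 to -0.35 at the other 4. Nfkbib, for IkappaB beta, read 8.51 on the knock-out and 8.65 on the wildtype array. Nfkbiz, for the nuclear protein IkappaB zeta, read 9.76 on both arrays, with differences of -0.11 and -0.41 at the others of its probe sets. Tnfaip3, for the ubiquitin-editing enzyme A20 that ends TNF signalling, lay on the opposite side, at 8.48 on the knock-out array against 8.04 on the wildtype array, 1.35-fold higher. Its second probe set was measured on the knock-out array alone and also read higher, at 5.73 in the knock-out against 5.23 in the wildtype. The 3 inhibitors whose windows are printed, Nfkbie, Nfkbia and Tnfaip3, differed by -0.97, -0.035 and 0.44 at their brightest probe sets. They were picked for print with these values known, so their spread describes that choice and not genes with a kappaB match.

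**Figure D2:**
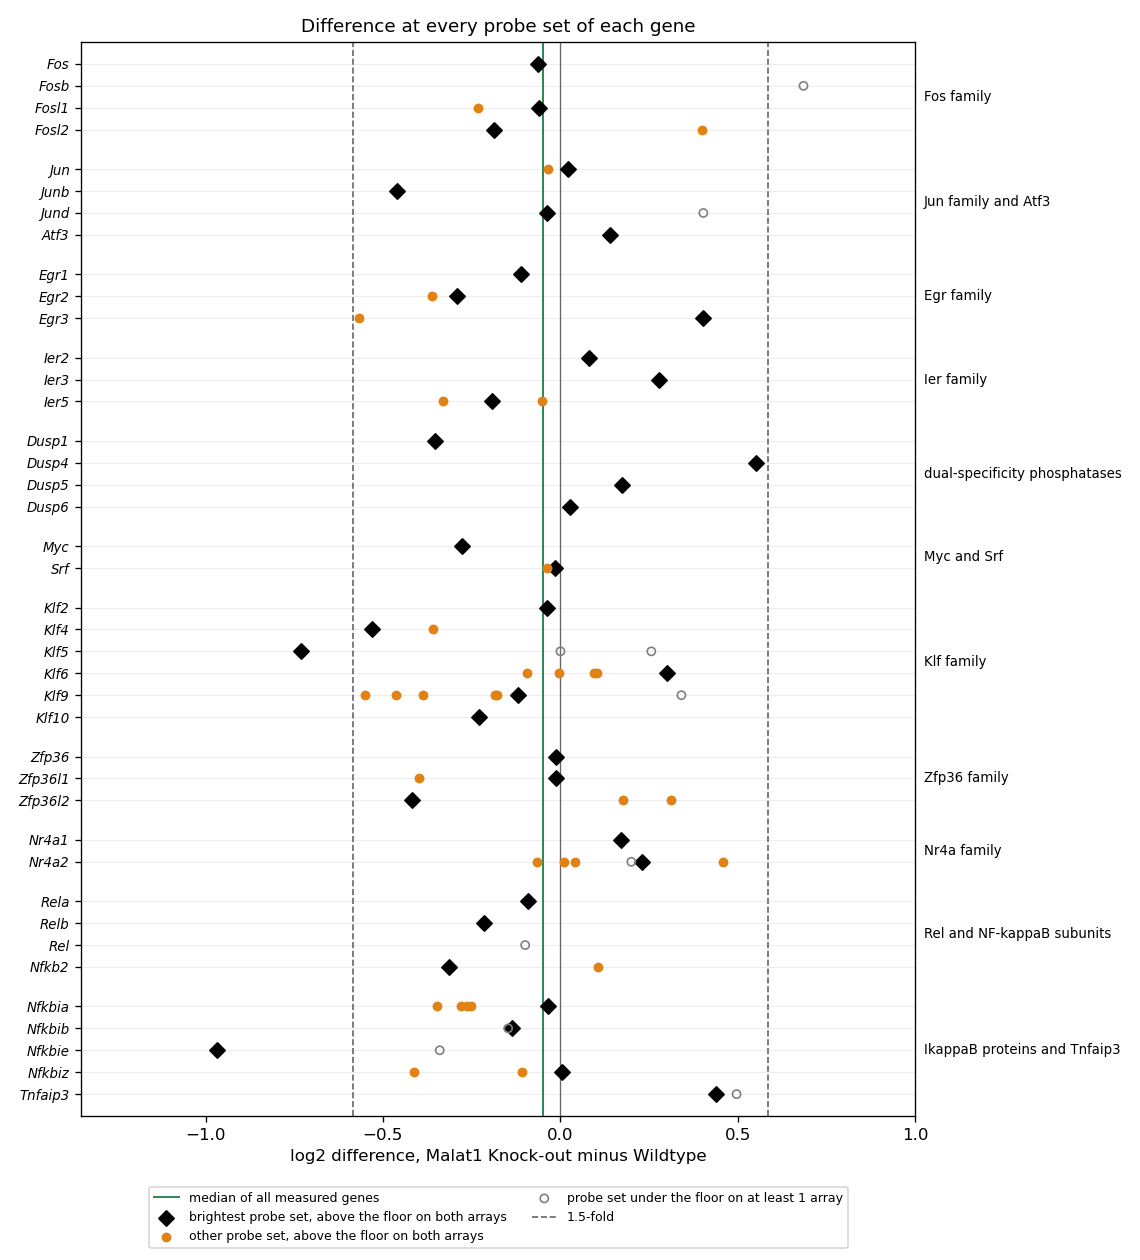
Log2 difference, Malat1 Knock-out minus Wildtype (horizontal axis), at every probe set of the 40 genes. Black diamonds are the brightest probe sets, orange points the other measured probe sets, open circles probe sets under the floor on at least 1 array, dashed lines 1.5-fold and the green line the median of all measured genes (-0.05). Egr3, Fosl2 and Zfp36l2 have measured probe sets on both sides of 0, while all those of Klf4, Klf9 and Nfkbia lie below it.

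Probe sets of one gene give the only internal check that these arrays allow, and they share 1 RNA sample. Of the listed genes, 16 had a second measured probe set. In 8 of the 16 every other measured probe set had the sign of the brightest, namely Egr2, Fosl1, Ier5, Klf4, Klf9, Nfkbia, Srf and Zfp36l1. These 8 were all lower on the knock-out array as deposited, where 59.8% of all measured genes were lower. The share of genes with such agreement over the whole array is not given here. The brightest probe sets of Fosl1, Srf and Zfp36l1 turned sign under all 3 other scalings and that of Nfkbia under 1 of them. In the other 8 at least 1 had the opposite sign. Over all 4881 genes with several measured probe sets, the differences at probe sets of the same gene had a pooled SD of 0.20. The SD across all measured genes, given above, was 0.24.

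The other genes of the pathways were compared as lists, chosen like the families with earlier results of these data known. Of 26 measured immediate early and early response genes outside the families, 20 were higher on the knock-out array, with a median of 0.14, where 39.2% of all measured genes were higher and their median was -0.05. The count was 20 of 26, or 76.9%, under each of the 3 other scalings as well, where 52.4%, 55.0% and 53.4% of all measured genes were higher. It rests on the brightest probe sets alone. Tsc22d1 and Ccn1, counted as higher, also had lower measured probe sets, down to -0.42 for Tsc22d1 and -0.10 for Ccn1. Btg1, counted as lower, had another at 0.031. All measured probe sets of Ptgs2, Hbegf, Gadd45b, Btg2, Csrnp1 and Errfi1 were higher. No gene of the list passed 1.5-fold. The largest differences were those of Gadd45a, a DNA-damage and growth-arrest gene, at 8.48 on the knock-out array against 9.01 on the wildtype array, Spry2, an inhibitor of growth factor signalling, at 8.10 in the knock-out against 7.61 in the wildtype, and Plaur, the urokinase receptor, at 10.94 in the knock-out against 10.51 in the wildtype. Gadd45a was 1.45-fold lower, Spry2 1.40-fold higher and Plaur 1.34-fold higher.

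Transcripts of the serum pathway from the MAP kinases to SRF differed by 0.25 at most at their brightest probe sets. Of 15 measured genes, 11 were lower (73.3%, beside 59.8% of all measured genes) and 3 higher, with a median of -0.12 that came to between -0.059 and -0.02 under the other scalings. Elk4, a ternary complex factor that recruits SRF, differed by -0.25, the kinase Braf by -0.23 and the MAP kinase kinase Map2k2 by -0.22. Other measured probe sets of the 3 went the opposite way, by 0.32 for Elk4, 0.19 for Map2k2 and 0.24 for 1 of Braf, whose 3 others were lower. The 12 cytoskeletal targets of SRF and its MRTF cofactors had a median of -0.0195, or -0.023 to 0.042 under the other scalings, and the largest difference was -0.38 for Zyx, the focal adhesion protein zyxin, with its other measured probe set at 0.13, followed by -0.17 for the nonmuscle myosin Myh9 and -0.16 for filamin A, Flna. No gene of either list passed 1.5-fold.

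NF-kappaB pathway genes outside the families differed in both directions. Of 16 measured components upstream of NF-kappaB, 14 were lower on the knock-out array, with a median of -0.16, where 59.8% of all measured genes were lower. The count was 14, 13 and 13 under the other scalings, where 47.6%, 44.8% and 46.6% of all measured genes were lower, with medians of -0.094, -0.056 and -0.063, and none passed 1.5-fold. These counts rest on the brightest probe sets alone. Ikbkb, lower at its brightest, differed by 0.17 and 0.38 at its other measured probe sets. Map3k7, Ikbkg and Traf6, counted as lower, also had a measured probe set that was higher. All measured probe sets of Irak1, Cyld, Tab2, Tlr4 and Tradd were lower. Tradd, the adaptor of the TNF receptor, read 7.27 in the knock-out against 7.77 in the wildtype, a difference of -0.50, and its second measured probe set differed by -0.62. Il1r1, the interleukin-1 receptor, differed by -0.39 and Map3k14, the kinase NIK of the noncanonical pathway, by 0.39, with a second Map3k14 probe set at -0.099.

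NF-kappaB target genes did not follow one direction, with 9 higher and 10 lower of 20 measured and a median of -0.0013. The 3 that passed 1.5-fold were all lower on the knock-out array, where 1.61% of all measured genes were lower by that size and 0.266% by 2-fold. Cxcl5, a neutrophil chemokine, read 5.99 in the knock-out against 7.57 in the wildtype, 2.99-fold lower. Its knock-out signal was dim, near the floor of 5.44, so the size of this difference is imprecise. Bcl3, an IkappaB-like cofactor of p50 and p52, read 6.71 in the knock-out against 7.49 in the wildtype, 1.72-fold lower, and the monocyte chemokine Ccl7 read 8.77 in the knock-out against 9.49 in the wildtype, 1.65-fold lower. Each of the 3 has 1 probe set. Among 9 measured bZIP partners of AP-1, 7 were lower (77.8%, beside 59.8% of all measured genes). The only one past 1.5-fold, as 1.61% of all measured genes were in that direction, was Maf at 8.08 in the knock-out against 8.75 in the wildtype, with its other measured probe set at -0.27. Batf2 differed by 0.47 and Jdp2, a repressor of AP-1, by -0.25.

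**Figure D3:**
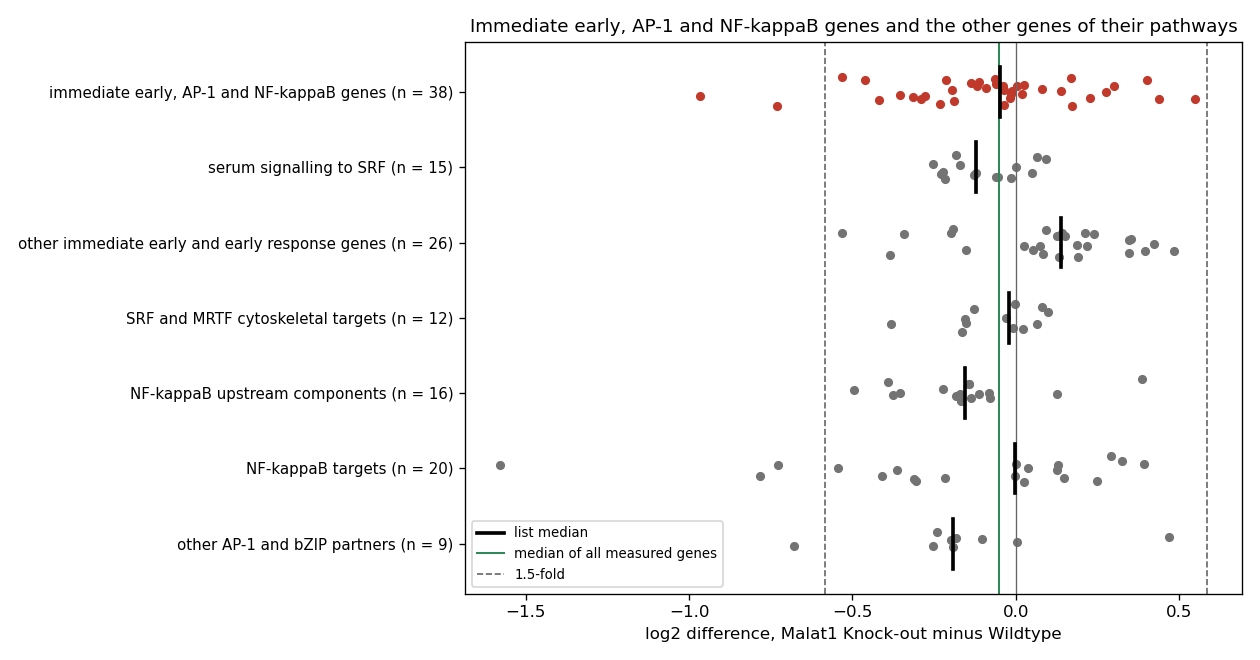
Log2 difference, Malat1 Knock-out minus Wildtype (horizontal axis), of the measured genes of each list, with 1 point a gene at its brightest probe set and a black bar at the list median. The green line marks the median of all measured genes (-0.05) and the dashed lines 1.5-fold. The median of the other immediate early and early response genes (0.14) lies right of the green line and that of the NF-kappaB upstream components (-0.16) left of it.

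Genes of these lists are also transcribed by macrophages, endothelial cells or epithelial cells, so markers of those cells are given beside these results. Of 10 macrophage and leukocyte markers, 9 were measured and 6 of these were lower on the knock-out array. The summed linear signal of all 10 was 3454 on the knock-out array and 4199 on the wildtype array. Lyz2, the brightest of them, made most of that difference. Ptprc read 5.76 in the knock-out against 6.18 in the wildtype and Lyz2 10.74 in the knock-out against 11.20 in the wildtype. Mrc1 was 1.51-fold lower, while Csf1r, Cd14 and Fcer1g differed by 0.069, 0.16 and 0.068 the other way, and Itgam was under the floor on both arrays. Of 7 epithelial markers 3 were measured on both arrays, all higher on the knock-out array, and Cdh1 and Krt14 were under the floor on both arrays. All 7 summed to 760.3 in the knock-out against 545.9 in the wildtype. Cldn4 was 2.18-fold higher, and Krt8 and Krt5 were above the floor on the knock-out array alone. Of 7 endothelial markers 3 were measured, all higher, and the defining markers Pecam1, Cdh5, Tie1 and Tek were under the floor on both arrays. All 7, those under the floor included, summed to 1191 in the knock-out against 706.7 in the wildtype. Emcn made most of that sum's difference, with a log2 difference of 1.47, or 2.77-fold higher. Fibroblast markers summed to 84808 on the knock-out array and 94164 on the wildtype array, a sum to which the brightest (Col1a2, Vim and Fn1, with differences of -0.15, 0.046 and -0.10) add most. The median difference of -0.25 over the 10 and the lower Col1a1 and Pdgfra are given above. The part of these cells in the differences above was not tested.

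**Figure D4:**
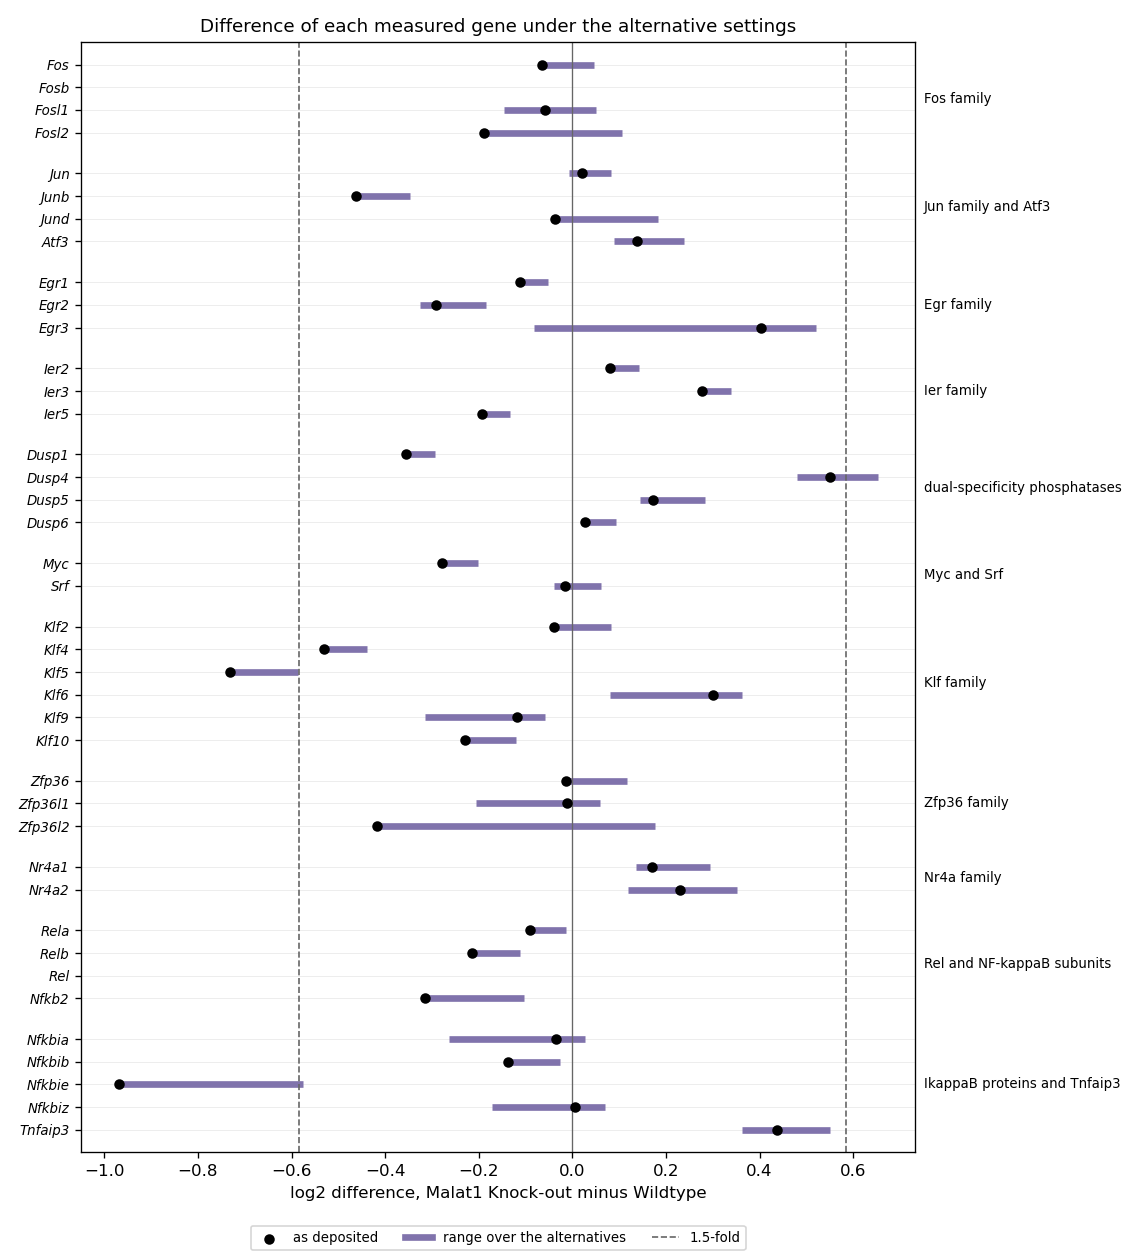
Log2 difference, Malat1 Knock-out minus Wildtype (horizontal axis), of each measured gene. Black points are the values as deposited, purple bars the range over the alternative settings and dashed lines 1.5-fold. Klf5 lies left of the dashed line at every setting, Nfkbie crosses it at one end of its range (-0.57) and Dusp4 crosses the other line (0.65).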

How the data were processed

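Per the labels' protocols, Trizol was used to extract total RNA, and a 3′ kit turned 100 ng of it into biotin-labelled RNA for Mouse430_2 arrays. The values were deposited by the authors as 1 number per probe set and array and were taken as log2 signals from their range, 2.09 to 14.71. The sources used here do not name the background correction, summarization or normalization, and such steps set which small differences appear.

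Gene names came from the platform annotation (34958 probe sets with 1 symbol, 932 with several, 9160 non-control probe sets with none). A gene was represented by its brightest probe set by the mean of both arrays. The difference is knock-out minus wildtype, and 1.5-fold was the size counted. No test was run, since each genotype has 1 array, whose number limits the precision. The genes, families and lists were chosen with earlier results of these data known. Every listed gene is named, and of each other pathway list the 3 measured genes with the largest difference. Of the pathway and marker names, 15 matched no probe set with 1 symbol, some being older or newer names of a listed gene. Python 3.11.15, pandas 2.3.3 and statsmodels 0.14.6 (loess) were used. Promoter windows came from RefSeq for GRCm38.p6, and their sequences were read for 29 of the 41 genes.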

Additional observations from a re-analysis of the deposited data

How the results depend on the processing

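No paired analysis was possible because there was only 1 array of each genotype. The arrays were rescaled in 3 ways (centring on the median difference, quantile normalization, loess with a span of 0.3). The floor was dropped or set at the 40th or 75th percentile, 16 or 64 was added to linear signals, and a gene was taken as the mean over its measured probe sets, the median over all of them, or its brightest without _x_at and _s_at types. The size called was also set at 2-fold and at a difference of 0.32. Genes higher by 1.5-fold numbered 0 as deposited and 1 under the 3 scalings (Dusp4) and without a floor (Fosb). Genes lower by 1.5-fold numbered 2 as deposited, 1 with the floor at the 75th percentile, with 64 added, with the median over all probe sets and without _x_at and _s_at probe sets, and 0 at 2-fold. At a difference of 0.32, 3 genes were higher and 6 lower at their brightest probe sets. The overall median, -0.049 as deposited, was 0.012, 0.034 and 0.038 under the scalings, beside 0.011, 0.023 and 0.014 for all measured genes. The family medians moved by less than 0.20, the pooled SD among probe sets of a gene, in every alternative that gave a value. Of 409 values of single genes under the alternatives, 394 moved by less than that and 15 by more, of which 14 came from another probe set rule. Signals near the floor, such as those of Nfkbie, are the least precise.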

Other observations

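Of the 26 measured immediate early and early response genes outside the families, the 20 higher on the knock-out array at their brightest probe sets differed by 0.026 (Errfi1) to 0.49 (Spry2). The 6 lower were Gadd45a (-0.53), the small GTPase Rhob (-0.38), the kinase Sgk1 (-0.34), the cytokine Lif (-0.20) and the antiproliferative genes Tob1 (-0.19) and Btg1 (-0.15). Nr4a3, the receptor of the Nr4a family outside the 41 genes, differed by 0.35.

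Of the measured genes, 119 had exactly the same value on both arrays, among them Cxcl10 at 5.84 and Mrtfa at 8.18.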
